A study of Mus musculus with 4 samples.

Results

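Early response genes were followed here in CD200R1 positive myeloid cells of mouse skin tumours. They are the 10 genes Egr1, Egr2, Egr3, Nab1, Nab2, Nr4a1, Nr4a2, Nr4a3, Ier2 and Ier3, found by their symbols among the 23420 symbols of the deposited table. They were selected on family membership with the EpiKO against WT differences of these same libraries in view. Differences of these genes between the groups are therefore a description and no independent evidence. The RNA came from cells sorted out of orthotopic skin squamous cell carcinomas of FVB/N mice. The sort took cells positive for the integrin CD11b, found on myeloid cells, and for CD200R1, which binds the surface protein CD200. In the EpiKO group (genotype K14Cre;CD200fl/fl, 2 libraries) a Cre recombinase driven by the keratin 14 promoter, which is active in epidermal keratinocytes, removes Cd200. In the WT group (wild type, 2 libraries) the gene is intact. The labels give no age, sex or batch, and do not say whether a library came from 1 mouse or a pool, so a p-value reflects the variation among these libraries alone and that variation may be technical.

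EGR proteins are zinc finger transcription factors that bind a GC-rich site. Their genes are switched on within minutes of a signal through the MAP kinase ERK, without new protein synthesis, largely through serum response factor and its ETS partners at CArG boxes. NAB1 and NAB2 bind EGR1, EGR2 and EGR3 and repress them, and NAB2 is itself induced by EGR factors, which closes a feedback loop. NR4A1, NR4A2 and NR4A3 are orphan nuclear receptors whose genes are also induced within minutes, in many cells through CREB at cAMP response elements and through MEF2. In mice, Nr4a1 is needed for the Ly6C-low monocyte subset, and Egr2 is used as a marker of alternatively activated macrophages.

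The libraries held between 15884132 and 21244158 reads assigned to genes. Values are normalised read counts, in which 1 read stands for 0.841 to 1.16. All 10 genes were among the 12463 tested, those that reached 10 in 2 or more libraries. Cd200, the targeted gene, was at 17.2 and 15.1 in the EpiKO libraries and at 92.7 and 59.7 in the WT libraries. Keratinocytes are not the sorted cells, so Cd200 here cannot serve as a test of the genotype. Cd200r1, the sorting receptor, was at 1101 and 612 in EpiKO and at 318 and 293 in WT. All 11 listed macrophage markers were measured, with summed values of 313178 and 409583 in EpiKO and 375245 and 321512 in WT. The highest were C1qa, Csf1r and Mrc1. Limma and edgeR called 0 of the 11, beside 0.947% and 0.842% of all tested genes. DESeq2 called 2 higher in EpiKO, beside 3.73% of all tested genes. At an unadjusted p under 0.05 by limma there were 2, beside 15.6%. Both EpiKO libraries lay above WT for 5 of the 11 and below for 0, beside 23.3% and 23.8% of all tested genes. Mrc1 differed by 0.67 (SE 0.162) on the log2 scale, and Cd163, picked for its value, by 1.32 (SE 0.371). The other way went 6 of the 11, down to -0.23 for Csf1r.

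Egr1, Egr2, Egr3, Nab2 and Ier3 had both EpiKO libraries above both WT libraries, with log2 fold changes between 0.67 and 1.57. Nr4a1, Nr4a2, Nr4a3 and Nab1 overlapped between the groups, and Ier2 had both EpiKO libraries below WT. Of the 10 genes, 6 had a log2 fold change above 0, as did 49.7% of all tested genes. The groups did not overlap for 47.1% of tested genes. Separation above WT, seen in 5 of the 10 genes, held for 23.3% of all tested genes, and separation below WT, seen in 1, for 23.8%. None of the 10 genes passed the test over all genes (limma on log2(value + 1), Benjamini-Hochberg adjusted p under 0.05), a rule met by 0.947% of the tested genes (0.417% higher and 0.53% lower in EpiKO). At an unadjusted p under 0.05 the list held 5 of the 10, a share met by 15.6% of all tested genes. The smallest adjusted p of the list was that of Egr2, 0.0567 by limma, and it ranged from 3.74e-06 to 0.178 over the alternative settings. DESeq2 on the recovered reads called Egr1, Egr2, Egr3 and Nab2 higher in EpiKO, and none lower, calls given to 3.73% and 3.12% of genes and to 6.85% in either direction, while edgeR's quasi-likelihood test called 0 of the 10 and 0.842% of all genes. The median log2 fold change of the 10 genes was 0.45, beside -0.0021 for all tested genes, and the median size of the change without its sign was 0.54 beside 0.18. In bulk RNA, fewer cells of a type and less RNA per cell cannot be told apart.

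**Figure D1:**
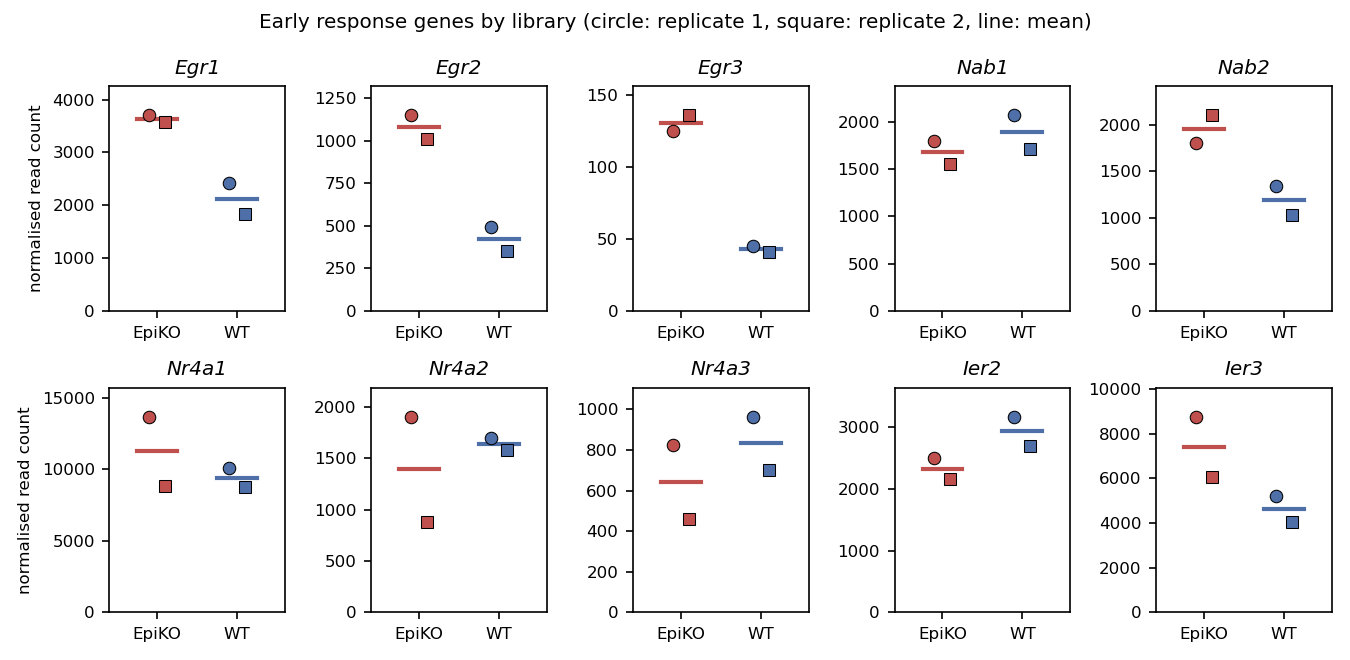
Normalised read counts (vertical axes, from 0) of the 10 genes in the EpiKO and WT libraries, 1 panel per gene. Circles are replicate 1, squares replicate 2 and lines the group means of 2 libraries. Egr1, Egr2, Egr3, Nab2 and Ier3 show both EpiKO points above both WT points, and Ier2 shows them below.

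Egr2, a factor that also governs Schwann cell myelination, had values of 1151 and 1011 in EpiKO and 493 and 350 in WT. The means were 1081 ± 98.7 in EpiKO and 421 ± 101 in WT (SD, n = 2 each), a ratio of 2.57. Its log2 fold change was 1.38 (SE 0.195), from 1069 and 1070 reads in EpiKO and 425 and 416 in WT, and the groups lay well apart. The gene spans chr10:67535475-67542188 on the plus strand of mm10 (GENCODE M21), and its exons overlap no other annotated gene.

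Egr3, a close relative that acts downstream of antigen and growth factor receptors, had the largest fold change of the 10 genes at a low level. It was at 125 and 136 in EpiKO and at 45.2 and 41.2 in WT, from 116 and 144 reads in EpiKO and 39 and 49 in WT. The log2 fold change was 1.57 (SE 0.238), and the 2 libraries of each group lay close together. Egr3 spans chr14:70077203-70082614. Egr1, the most abundant of these 3 factors, was at 3702 and 3576 in EpiKO and at 2413 and 1832 in WT. Its log2 fold change of 0.79 (SE 0.160) was the smallest of the family. Egr4, the remaining member of the gene family, had 0 to 2 reads in each library and was not tested.

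Among the EGR genes, Egr1 had the smallest log2 fold change. Those of Egr2, 1.38 (SE 0.195), and Egr3, 1.57 (SE 0.238), overlapped within their standard errors, so their order is not settled. Per kilobase of exon, the 3 genes summed to 1193 and 1126 in EpiKO and to 693 and 521 in WT. Egr2 made up 28.4% and 26.4% of that sum in EpiKO and 20.9% and 19.8% in WT. Egr1 made up 69.2% and 70.8% in EpiKO and 77.6% and 78.4% in WT. The mix of EGR transcripts thus held relatively more Egr2 in both EpiKO libraries.

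Promoter sequence was available from RefSeq (GRCm38.p6) for 7 of the 10 genes, as windows from 250 bases before to 50 after each start site, 11 windows in all. Egr1, Egr3 and Ier2 had none. The stretch before the Egr2 start site at 67537869 is shown because it carries both kinds of element through which early response genes are known to be induced. It spans chr10:67537619-67537868 on the plus strand. Capitals mark the CArG box, the serum response factor site, and each TGACG on either strand, the core of the cAMP response element.
Egr2: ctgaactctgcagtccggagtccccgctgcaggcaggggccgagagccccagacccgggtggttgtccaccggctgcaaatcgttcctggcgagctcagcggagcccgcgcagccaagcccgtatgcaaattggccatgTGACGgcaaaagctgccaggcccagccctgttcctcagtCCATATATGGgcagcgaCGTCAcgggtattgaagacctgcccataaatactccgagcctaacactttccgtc
The box CCATATATGG begins 72 bases before the start site, between TGACG cores whose first bases lie 111 and 55 bases before it. A CArG box occurred in 1.63% of the 32851 mouse promoter windows of the same length, and at least 2 TGACG cores in 5.01%. Among the 7 genes only Egr2 windows held a CArG box. A match of letters does not show that a factor is bound.

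Nab2, the EGR-induced corepressor, was at 1809 and 2103 in EpiKO and at 1342 and 1032 in WT. Its log2 fold change was 0.73 (SE 0.167), close to that of Egr1. Nab1, the corepressor that is expressed more constantly, was at 1799 and 1557 in EpiKO and at 2068 and 1714 in WT, a log2 fold change of -0.17 (SE 0.145) with overlapping groups, and between -0.31 and -0.035 when 1 library was left out. Per kilobase the ratio of Nab2 to Nab1 was 1.40 and 1.88 in EpiKO and 0.905 and 0.840 in WT. With the full exon length as divisor, Nab2 was thus the more abundant of the pair in both EpiKO libraries and the less abundant in both WT libraries. The ratio of summed EGR to summed NAB transcripts per kilobase was 1.13 and 1.03 in EpiKO and 0.722 and 0.677 in WT.

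Nab2 spans chr10:127660918-127668568 on the minus strand. Of its 2941 exon bases, 1050 are shared with the predicted gene Gm16229, 151 with Nemp1 and 40 with Stat6, all on the other strand. Reads there cannot be told apart if strand was not used in counting, and whether it was is not stated. The level of Nab2 per kilobase, and with it the rank of Nab2 beside Nab1, depends on that setting. Stat6, the interleukin 4 signal transducer, was at 5517 and 5016 in EpiKO and at 4385 and 4813 in WT, a log2 fold change of 0.20. The Nab1 promoter window held 3 matches to the EGR site GCGNGGGCG on either strand, a count reached by 0.195% of windows, and the Nab2 window held 0, while 5.55% of windows held at least 1. All 3 Nab1 matches lie inside the gene as annotated by GENCODE, which begins at 52500679, upstream of the RefSeq start site at 52500448. The RefSeq start site of Nab2, at 127666703, also lies inside its gene, which begins at 127668568. Sequence before that GENCODE start was not searched.

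Nr4a1, the receptor NUR77, was among the most abundant genes of these cells. It was at 13681 and 8840 in EpiKO and at 10082 and 8739 in WT, with a log2 fold change of 0.23 (SE 0.236). EpiKO replicate 2 lay within the WT range and EpiKO replicate 1 above it. The gene spans chr15:101254269-101274795. Without EpiKO replicate 1 the log2 fold change was -0.087, and without EpiKO replicate 2 it was 0.54.

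Nr4a2, known as NURR1 and best known in dopamine neurons, was at 1904 and 883 in EpiKO and at 1699 and 1578 in WT. Its log2 fold change was -0.34 (SE 0.368), since EpiKO replicate 1 was the highest and EpiKO replicate 2 the lowest of the 4 libraries. Nr4a3, the receptor NOR1, was at 826 and 459 in EpiKO and at 963 and 701 in WT, a log2 fold change of -0.42 (SE 0.323) with overlapping groups. Leaving out EpiKO replicate 2 gave 0.22 for Nr4a2 and 0.0069 for Nr4a3, and leaving out EpiKO replicate 1 gave -0.89 and -0.84. The sign of the log2 fold change of all 3 Nr4a genes therefore rested on which EpiKO library was read. The turned values of Nr4a1, -0.087, and Nr4a3, 0.0069, were close to no change.

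The Nr4a genes and Ier3 were lower together in EpiKO replicate 2 than in EpiKO replicate 1. The gap on the log2 scale was 0.63 for Nr4a1, 1.11 for Nr4a2, 0.84 for Nr4a3 and 0.53 for Ier3, beside a median gap of 0.19 over all tested genes. Egr1, at 0.050, Egr2, at 0.19, and Egr3, at 0.12, had smaller gaps there. Within WT the gaps were 0.40 for Egr1, 0.49 for Egr2 and 0.13 for Egr3, and 0.21 for Nr4a1, 0.11 for Nr4a2, 0.46 for Nr4a3 and 0.35 for Ier3, beside a median of 0.18. All 10 genes were lower in WT replicate 2 than in WT replicate 1. Within EpiKO the heat shock genes Hspa1a and Hspa1b, chosen after their values were seen, ran against the Nr4a genes and Ier3. Within WT both were slightly lower in replicate 2, as the 10 genes were. Hspa1a was at 544 in EpiKO replicate 1 and 2142 in EpiKO replicate 2, against 1906 and 1795 in WT. Hspa1b was at 732 and 3538 in the same EpiKO libraries, against 2645 and 2590 in WT. Whether the gaps of these genes share a source was not tested.

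The 3 Nr4a promoters are shown because each window held 4 TGACG cores, a count reached by 0.231% of all windows. Capitals mark TGACG on either strand and the EGR site GCGNGGGCG. The stretches are chr15:101266596-101266845 on the plus strand, chr2:57124004-57124253 on the minus strand and chr4:48045055-48045152 on the plus strand, each cut where an annotated exon begins.
Nr4a1: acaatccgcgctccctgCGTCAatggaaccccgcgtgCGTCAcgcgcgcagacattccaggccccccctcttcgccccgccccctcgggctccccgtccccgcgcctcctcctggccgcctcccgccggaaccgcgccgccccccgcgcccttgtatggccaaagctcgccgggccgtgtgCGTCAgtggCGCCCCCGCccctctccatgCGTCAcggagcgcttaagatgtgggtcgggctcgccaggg
Nr4a2: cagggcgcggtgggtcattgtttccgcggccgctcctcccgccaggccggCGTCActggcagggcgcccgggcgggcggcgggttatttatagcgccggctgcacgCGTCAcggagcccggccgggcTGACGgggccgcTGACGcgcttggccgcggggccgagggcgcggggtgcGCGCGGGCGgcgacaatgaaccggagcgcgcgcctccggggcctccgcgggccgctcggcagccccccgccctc
Nr4a3: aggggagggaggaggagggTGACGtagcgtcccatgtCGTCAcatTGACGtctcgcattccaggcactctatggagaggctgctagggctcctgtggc
The Nr4a3 core nearest the start site lies past the printed stretch, in an exon annotated by GENCODE. Nr4a1 and Nr4a2 each held 1 EGR site and Nr4a3 held 0. No window of the 7 genes held a complete cAMP response element TGACGTCA, an AAAGGTCA, the site bound by an NR4A monomer, or an AP-1 site TGANTCA on either strand. Of all windows, 1.79% held the first, 1.51% the second and 7.81% the third. Each complete element would also count as a pair of overlapping cores.

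**Figure D2:**
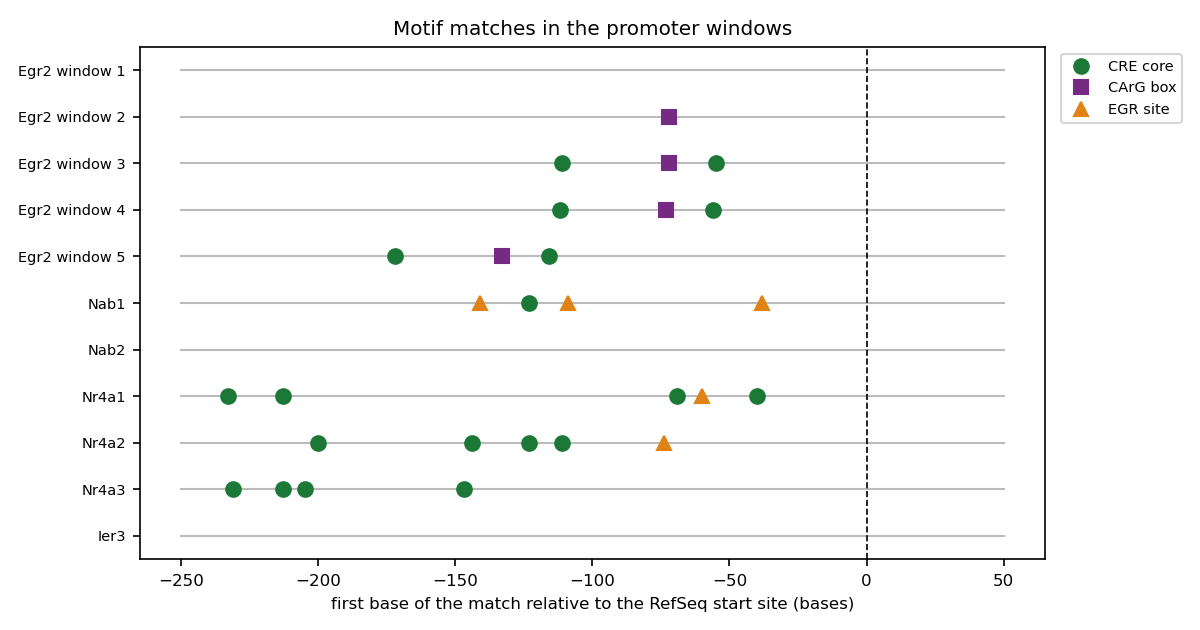
Positions of motif matches on either strand in the 11 RefSeq promoter windows of 7 genes, as the first base of each match in bases from the start site (dashed line). Green circles are TGACG cores of the cAMP response element, purple squares CArG boxes and orange triangles EGR sites. The 3 Nr4a windows each hold 4 cores, Nab1 holds 3 EGR sites, and CArG boxes lie in 4 of the 5 Egr2 windows. Windows 3, 4 and 5 of Egr2 overlap and hold the same box, CCATATATGG, and the same cores.

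Ier3, an early response gene that modulates apoptosis and ERK signalling, was at 8759 and 6065 in EpiKO and at 5194 and 4062 in WT. Its log2 fold change was 0.67 (SE 0.227), and both EpiKO libraries lay above both WT libraries. The log2 fold change was 0.40 without EpiKO replicate 1 and 0.93 without EpiKO replicate 2. Ier3 is a short gene, at chr17:35821684-35822923. Ier2, a nuclear protein gene induced along with Fos, was at 2502 and 2153 in EpiKO and at 3165 and 2697 in WT. Its log2 fold change was -0.33 (SE 0.140), or between -0.45 and -0.22 when 1 library was left out, so the 2 Ier genes, which are unrelated apart from their name, lay on opposite sides of 0.

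**Figure D3:**
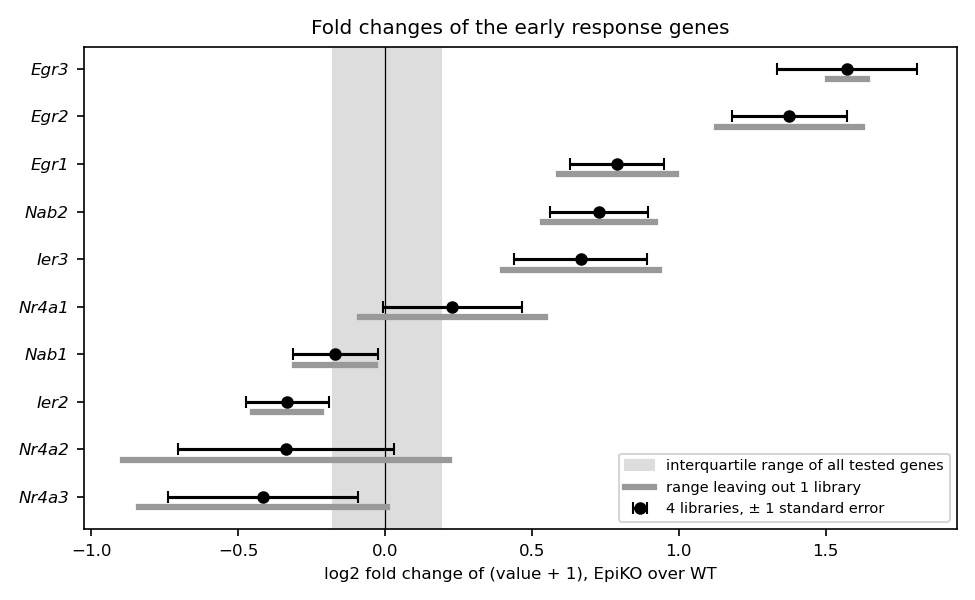
Log2 fold changes of EpiKO over WT (horizontal axis, on the log2(value + 1) scale) of the 10 genes, points with ± 1 moderated standard error. Grey bars give the range when 1 library is left out, and the shaded band is the interquartile range of all tested genes. The bars of the 3 Nr4a genes cross 0, and those of Egr1, Egr2, Egr3, Nab2 and Ier3 lie above it.

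Levels can be compared between genes per kilobase of exon. In order, the means were 6554 ± 1684 for Ier3, 3209 ± 975 for Nr4a1 and 1529 ± 162 for Ier2 in EpiKO (SD, n = 2), and 4092 ± 707, 2682 ± 270.5 and 1926 ± 217 for the same genes in WT. These 3 genes stood between the 95.2 and the 99.3 percentile of tested genes in every library. Egr1, Nab2, Nab1 and Nr4a2 followed at 812 ± 19.9, 665 ± 70.7, 409 ± 41.8 and 343 ± 178 in EpiKO and at 473 ± 91.7, 404 ± 74.5, 461 ± 61.0 and 404 ± 21.2 in WT. In WT these 4 lay within their spread of each other, whereas in EpiKO Egr1 and Nab2 stood apart from Nab1, and Nr4a2 had too wide a spread to place. Egr2 was at 318 ± 29.0 in EpiKO and 124 ± 29.7 in WT. Nr4a3 was at 107 ± 43.3 in EpiKO and 139 ± 31.0 in WT, which overlaps Egr2 in WT but not in EpiKO. Egr3, at 29.6 ± 1.80 in EpiKO and 9.80 ± 0.644 in WT, was the rarest and stood between the 11.8 and the 24.1 percentile.

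**Figure D4:**
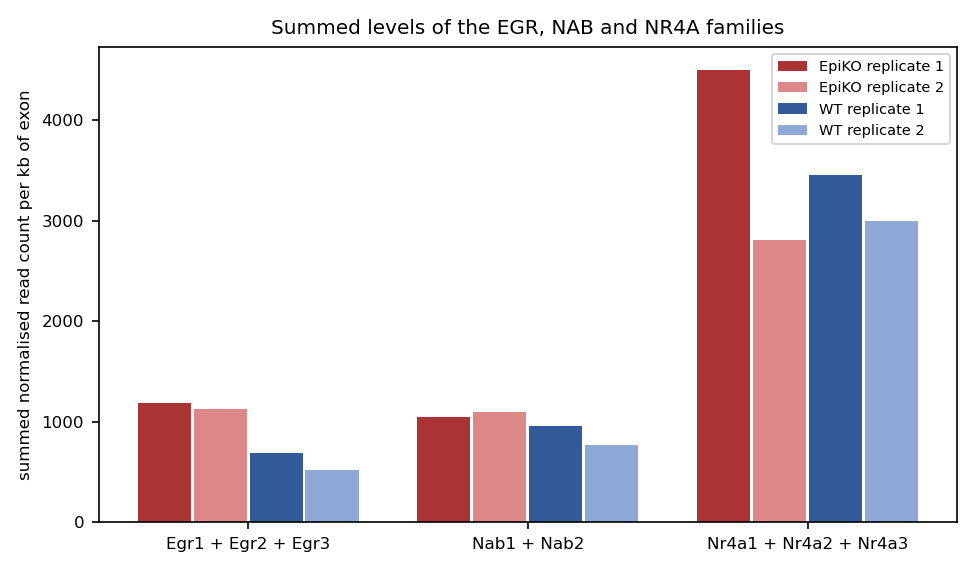
Summed normalised read counts per kilobase of exon (vertical axis, from 0) of the EGR, NAB and NR4A genes in each library, with 1 bar per library and EpiKO in red, WT in blue. The EGR sums are 1193 and 1126 in EpiKO and 693 and 521 in WT, whereas the NR4A sums of EpiKO, 4506 and 2813, lie on both sides of those of WT, 3453 and 2996.

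The other immediate early genes spread in both directions. Of 49 tested genes of this list 0 rose and 3 fell by limma, with 20 positive and 29 negative log2 fold changes and a median of -0.17. By limma 0.417% of all tested genes rose and 0.53% fell. DESeq2 called 6 of the list higher and 10 lower, beside 3.73% and 3.12% of all tested genes. At an unadjusted p under 0.05 by limma there were 21, beside 15.6% of all tested genes. The 3 that fell were Dusp4 (log2 fold change -1.24, SE 0.146) and Dusp2 (-1.30, SE 0.162), nuclear phosphatases that switch off MAP kinases, and Klf10 (-1.23, SE 0.154), a zinc finger gene induced by TGF-beta, each at an adjusted p of 0.0471 by limma. Dusp4 was at 427 and 539 in EpiKO and at 1138 and 1125 in WT. On the positive side, without passing by limma, were Gadd45a, a growth arrest gene, at 1.39 (SE 0.268), Ptgs2, the inducible cyclooxygenase, at 1.35 (SE 0.300), and Dusp6, a cytoplasmic ERK phosphatase, at 1.18 (SE 0.153), all log2 fold changes of genes picked for their values. The calls of Dusp2 and Klf10 ended under edgeR at an adjusted p of 0.0517, that of Dusp2 also with libraries scaled to equal totals, and those of all 3 when any library was left out or limma ran without trend and robust moderation. Fos, the archetype of the class, was named with its values known and was at 36378 and 39910 in EpiKO and at 31210 and 38503 in WT, which overlap.

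Among 33 kinases and transcription factors upstream of these genes, 0 rose, 1 fell and 32 did not pass, with a median log2 fold change of 0.026. The one that fell was Nfatc1, the calcium-regulated factor, at 1804 and 2057 in EpiKO and 5465 and 6357 in WT (log2 fold change -1.61, SE 0.136; 0.0334 by limma after adjustment). Crtc3, a coactivator of CREB, had a log2 fold change of 0.40 (SE 0.108). Dok2, an adaptor that CD200R1 uses to restrain RAS and ERK signalling, was at 4211 and 2156 in EpiKO and at 1042 and 1406 in WT, a difference of 1.31 on the log2 scale (SE 0.351) that did not pass at 0.180 by limma after adjustment and passed at 0.00152 by DESeq2. DESeq2 called 1 gene of this list higher and 1 lower, beside 3.73% and 3.12% of all tested genes. By limma 0.417% of all tested genes rose and 0.53% fell. At an unadjusted p under 0.05 by limma there were 4 of the 33, beside 15.6% of all tested genes.

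Genes described as EGR targets spread widely in both directions. Of 28 tested, 1 rose, 2 fell and 25 did not pass, and the median log2 fold change was 0.046. By limma 0.417% of all tested genes rose and 0.53% fell. DESeq2 called 4 of the 28 higher and 6 lower, beside 3.73% and 3.12% of all tested genes. At an unadjusted p under 0.05 by limma there were 16, beside 15.6% of all tested genes. Csf1, the macrophage growth factor, rose and was at 814 and 1053 in EpiKO, against 269 and 197 in WT (log2 fold change 2.00, SE 0.215). Pdgfa, a platelet-derived growth factor chain, fell to 616 and 502 in EpiKO, against 1493 and 1331 in WT (log2 fold change -1.34, SE 0.145). Rrad, a RAS-related GTPase, fell to 228 and 364 in EpiKO, against 1689 and 1261 in WT (log2 fold change -2.34, SE 0.273). Adjusted p by limma was 0.0425 for Csf1 and Pdgfa and 0.0471 for Rrad, and the call of Rrad ended under edgeR at an adjusted p of 0.0517.

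Of 20 genes of Ly6C-low monocytes and others described downstream of NR4A receptors, 2 rose, 0 fell and 18 did not pass, and the median log2 fold change was 0.0046. By limma 0.417% of all tested genes rose and 0.53% fell. DESeq2 called 3 of the 20 higher and 3 lower, beside 3.73% and 3.12% of all tested genes. At an unadjusted p under 0.05 by limma there were 8, beside 15.6% of all tested genes. Ace, a peptidase that makes angiotensin II, rose and was at 3924 and 3050 in EpiKO, against 613 and 539 in WT (log2 fold change 2.59, SE 0.160, with 0.0329 as adjusted p by limma). Itgal, the alpha chain of the integrin LFA-1, was at 2819 and 2861 in EpiKO and at 857 and 670 in WT (log2 fold change 1.91, SE 0.148, adjusted p = 0.0334 by limma). Spp1, osteopontin, was at 158860 and 111359 in EpiKO and at 47900 and 46436 in WT, and missed the threshold by limma (adjusted p = 0.0567) but passed by DESeq2 (adjusted p = 3.86e-10). On the negative side, also picked for their values and not passing by limma, were Spn, the sialoglycoprotein CD43, at a log2 fold change of -1.80 (SE 0.300), the scavenger receptor gene Cd36 at -1.70 (SE 0.541) and Apobec1, an RNA editing enzyme gene, at -0.90 (SE 0.191). The other calls of these 3 lists, those of Nfatc1, Csf1, Pdgfa, Rrad, Ace and Itgal, also ended without trend and robust moderation and when any library was left out, then at adjusted p between 0.0520 and 0.188 by limma.

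**Figure D5:**
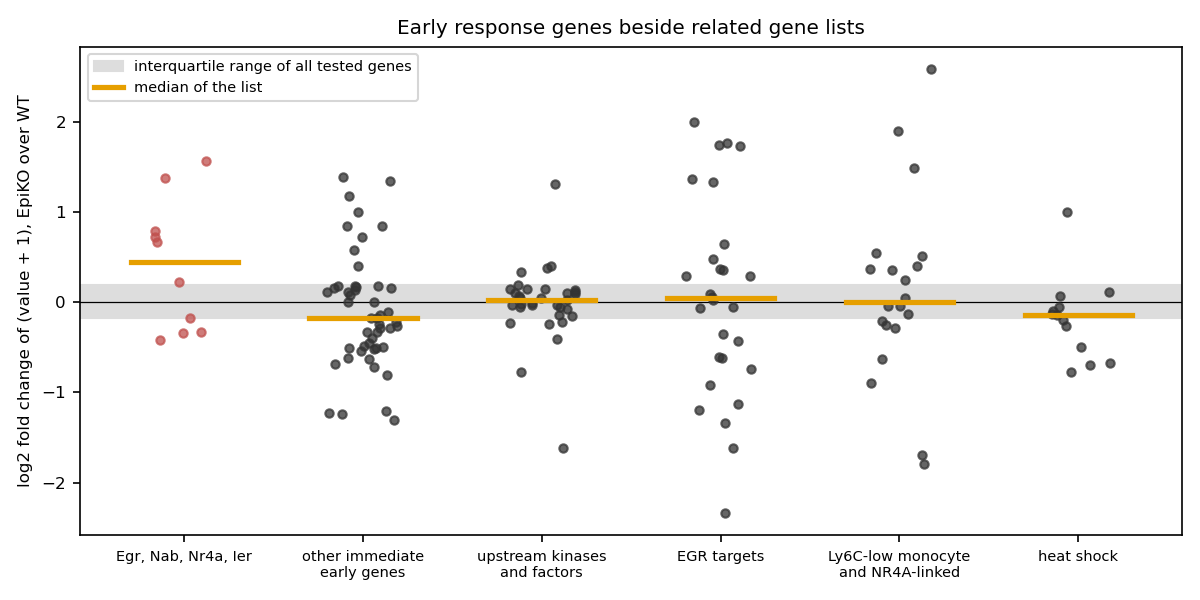
Log2 fold changes of EpiKO over WT (vertical axis, on the log2(value + 1) scale) of the 10 genes in red and of 5 related lists in grey, 1 point per tested gene, with the median of each list in orange and the interquartile range of all tested genes shaded. The medians are 0.45 for the 10 genes, -0.17 for other immediate early genes, 0.026 for upstream genes, 0.046 for EGR targets, 0.0046 for Ly6C-low monocyte and NR4A-linked genes and -0.14 for heat shock genes.

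Tissue dissociation is known to induce heat shock genes together with early response genes. Of 13 heat shock genes tested, limma, edgeR and DESeq2 called 0, beside 0.947%, 0.842% and 6.85% of all tested genes. At an unadjusted p under 0.05 by limma there were 2 of the 13, beside 15.6% of all tested genes. The median log2 fold change of the 13 genes was -0.14. Their summed values were 84481 and 88176 in EpiKO and 95513 and 89631 in WT. The co-chaperones Dnajb4 and Dnajb1 differed by -0.67 (SE 0.193) and -0.50 (SE 0.176) on the log2 scale, and Hspb1, a small heat shock protein gene, by 1.00 (SE 0.435). Both EpiKO sums lay below both WT sums, and 10 of the 13 log2 fold changes were negative and 3 positive. Both EpiKO libraries lay below WT for 5 genes and above for 2, beside 23.8% and 23.3% of all tested genes. The part of tissue dissociation in the differences of the early response genes was not tested.

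Markers of 8 other cell types gave 0 calls by limma and by edgeR among the 38 of 64 entries that were tested. Of all tested genes, limma called 0.947% and edgeR 0.842%. DESeq2 called 4 of the 38, of which 2 were higher and 2 lower, beside 6.85% of all tested genes. At an unadjusted p under 0.05 by limma there were 8, beside 15.6% of all tested genes. Fibroblasts, which also use Egr genes, had summed marker values of 18859 and 28403 in EpiKO and 32380 and 21715 in WT over 8 of 8 measured markers, led by the collagen genes Col3a1, Col1a1 and Col1a2. These sums, carried by collagens, overlapped between the groups. Of the 8 markers, 2 had both EpiKO libraries above WT and 1 had both below, beside 23.3% and 23.8% of all tested genes. At an unadjusted p under 0.05 by limma there were 2, and DESeq2 called 1 higher. The receptor genes Pdgfra and Pdgfrb, picked for their values, had differences of 0.84 (SE 0.185) and 0.90 (SE 0.263) on the log2 scale, in the direction of the Egr genes. Col3a1, the marker separated below WT, was at -0.59 (SE 0.250) and Lum at -0.42 (SE 0.459). These were the 2 negative markers, beside 6 positive ones. Keratinocyte sums over 10 markers were 4503 and 743 in EpiKO and 5628 and 441 in WT. The EpiKO sums were mostly Cdh1, E-cadherin, at 4437 and 685, while Krt14 was at 1907 in WT replicate 1 and at 28.6 or less elsewhere, and Krt5 at 736 in WT replicate 1 and at 7.56 or less elsewhere. Egr1, Egr2 and Egr3 had log2 fold changes of 0.99, 1.62 and 1.64 without WT replicate 1. Each was higher in that library than in WT replicate 2, so leaving it out could only raise their log2 fold changes.

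T and NK cell markers summed to 194 and 1024 in EpiKO and to 1917 and 649 in WT, most of it Cd4, with Klrb1c and Lck next and Cd8a at 0 in all 4 libraries. B cell markers summed to at most 64.3 in EpiKO and 82.3 in WT, nearly all Cd79b, with Ms4a1 at a few reads and Pax5 at 0. Neutrophil sums were 4532 and 2452 in EpiKO and 1542 and 3038 in WT, with Mmp8 highest on the mean, at 3757 and 847 in EpiKO and 167 and 222 in WT, then Csf3r and S100a9. Mmp8 ran against most of its list, of which 6 of 8 tested genes were negative with a median log2 fold change of -0.76, among them Retnlg at -2.84 (SE 0.724), S100a9 at -1.69 (SE 1.23) and Csf3r at -0.52 (SE 0.446). Dendritic cell sums of 1054 and 2104 in EpiKO and 1780 and 888 in WT were mostly Itgax, ahead of Ccr7 and Cd209a. Mast cell sums, led by Tpsb2, Mcpt4 and Kit, were 112 and 19.8 in EpiKO and 282 and 31.1 in WT. Endothelial sums, led by Pecam1, Cdh5 and Vwf, were 281 and 284 in EpiKO and 311 and 226 in WT. The part of other cell types in the differences of the Egr, Nr4a and Ier genes was not tested.

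Genes most like Egr2, Egr3 and Nr4a1 over the 4 libraries were sought among 10740 others with a mean of at least 50, by the distance between centred log2 values. Nearest to Egr2 were Fbln2, the matrix protein fibulin 2, at a distance of 0.092, Mrc2, a collagen receptor, at 0.16, and Atg9b, an autophagy gene, at 0.18. Fbln2 was at 2306 and 2128 in EpiKO and at 960 and 732 in WT (log2 fold change 1.40). Nearest to Egr3 were Ntn1, the guidance cue netrin 1, at 0.15, Dlg5, a scaffold protein gene, at 0.16, and Col6a3, a collagen VI chain, at 0.16. Col6a3 was at 2888 and 3188 in EpiKO and at 1174 and 922 in WT (log2 fold change 1.54). Nearest to Nr4a1 were Rgag4 at 0.10, Adipor2, an adiponectin receptor, at 0.11, and 3110002H16Rik at 0.12. Each shared the high value of EpiKO replicate 1, as Adipor2 did at 4166 there, against 2669 in EpiKO replicate 2 and 2854 and 2743 in WT.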

How the data were processed

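RNA-seq of 4 libraries was analysed, 2 EpiKO and 2 WT, grouped by the genotype label. Per the labels' protocols, poly-A RNA was made into Illumina TruSeq libraries, and STAR 2.5.2b, featureCounts 1.5.0-p3, bcl2fastq 2.17, DESeq2 and the build mm10 are named, with no roles, in the submitters' processing notes. Not given in the sources used here are the annotation, the strand setting and the handling of multiply aligned reads. Each deposited value is a normalised signal, a gene's read count over a size factor common to its library. Within 1e-06 reads, 100% of values came out as whole reads.

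The genes, the 5 pathway lists, the 9 cell type lists and the tests were chosen with earlier results of these data known. Of 221 list entries, 2 were found by synonym and 2 were not found. Values were tested as log2(value + 1) with limma 3.58.1 in R 4.3.3 (trend, robust, no covariate, two-sided), for genes at 10 or more in at least 2 libraries, with Benjamini-Hochberg adjustment over 12463 genes and a threshold of 0.05. This scale understates changes of low genes. edgeR 4.0.16 (quasi-likelihood, TMM) and DESeq2 1.42.0 on the recovered reads, which count 105 and 854 calls beside 118 by limma, were alternatives, along with pseudocounts, filters, scalings and leaving out each library. Code was tested on simulated data. Named genes are all 10 members, the 3 smallest p of each pathway list, the 3 highest means of each cell type list and the 3 nearest patterns of Egr2, Egr3 and Nr4a1. One gene that this rule names is not reported here. Any other gene was chosen after its values were seen. Exon length is the union of GENCODE M21 exons. An exact permutation test of 2 against 2 libraries cannot pass the threshold, so p-values rest on the spread shared across genes.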

Additional observations from a re-analysis of the deposited data

How the results depend on the processing

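No paired analysis was possible because the labels give no replicate numbers, so those used here only name the libraries. Over the 13 alternatives, 122 of 130 log2 fold changes of the 10 genes kept their direction and their side of the threshold, 5 newly passed and 3 turned. All 3 that turned were Nr4a genes with an EpiKO library left out. Nr4a1 was then at -0.087 without EpiKO replicate 1, and Nr4a2 at 0.22 and Nr4a3 at 0.0069 without EpiKO replicate 2. Over all left-out libraries they ranged between -0.087 and 0.54, between -0.89 and 0.22, and between -0.84 and 0.0069. The cause was not tested. The number of the 10 genes called was 0 by limma as reported, 1 with no filter on low values (Egr2, adjusted p = 0.0494 by limma) and 4 by DESeq2. Adjusted p by DESeq2 was 0.00313 for Egr1, 3.74e-06 for Egr2, 0.00134 for Egr3 and 0.0161 for Nab2. Over all genes, 118 were called, against 38 without trend and robust moderation, 854 by DESeq2, and 0 to 7 when 1 library was left out. These were 6 without EpiKO replicate 1, 7 without EpiKO replicate 2 and 0 without either WT library, where 1289 and 1418 genes had an unadjusted p under 0.05. The single library left in a group is taken to vary as the other group does. The median log2 fold change of the 10 genes, 0.45, lay between 0.16 and 0.59 with 1 library left out and between 0.42 and 0.47 under the other 9 alternatives. No scaling moved the median of all genes by more than 0.030. Depth limits Egr3 most, with 39 to 144 reads in a library.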
